A study of Arabidopsis thaliana with 21 samples.

Results

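In the TAIR10 gene annotation of Arabidopsis thaliana, 372 of 27206 protein-coding loci on chromosomes 1 to 5 shared at least 1 exonic base with another coding locus on the same strand, which was 1.37% of the coding loci. Exons were joined over the isoforms of a locus, and the loci were chosen by these shared bases, so shared lengths are given as a description and were not tested. The 372 loci formed 198 pairs. They fell into 182 chains of linked loci, of which 176 held 2 loci, 4 held 3 and 2 held 4.

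The annotation was deposited with a study of woodiness in Arabidopsis stems, in which 21 libraries of poly(A)-selected, strand-specific RNA were made from 7 groups of 3 biological replicates. All plants were of the Col-0 ecotype. The 3 wild-type (WT) groups were leaf, herbaceous stem and cambium stem, and the genotype soc1-ful gave the same 3 tissues and, as a further group, wood stem. All plants grew in 16 h of light per day at 20 °C. SOC1 and FUL are MADS-box genes that promote flowering, and 0 of these 2 genes were among the 372 loci. No library values were analysed here, and therefore no level and no depth can be given for any locus, and no label could be checked against a marker.

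An mRNA usually carries a single long reading frame between a 5′ untranslated region (UTR), or leader, and a 3′ UTR. Some plant leaders hold a short upstream reading frame, which ribosomes meet before the main frame. Where the amino acid sequence of the upstream peptide is conserved, the peptide can stall ribosomes and lower translation of the main frame, often in response to a metabolite such as sucrose, a polyamine or phosphocholine. Thermospermine, a polyamine made by ACL5, limits xylem formation, and it is known to act in part through the leaders of the SAC51 family of basic helix-loop-helix (bHLH) factors. Reads from bases that 2 loci share on 1 strand are not told apart by position or by strand. The sources used here do not say how the study counted such reads.

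The 198 pairs were sorted into 7 kinds by what the shared bases were in each locus. Tandem ends, in which the end of one gene ran into the start of the next with no base coding in both, made up 76 pairs (38.4%). A further 64 pairs (32.3%) joined a host gene to a separate locus of at most 100 codons whose whole coding sequence lay in the leader of the host, here called an upstream frame. In 8 pairs both loci were upstream frames of 1 host. Bases coding in both loci occurred in 31 pairs, in the same reading frame in 24 and in another frame in 7. In 13 pairs more than 90% of the smaller gene lay within the larger with the coding sequences apart. The last 6 pairs were nested and shared 39 to 294 bp, such as RCF3, an RNA-binding KH domain protein gene, and AT5G53070, with 134 bp. The 4 chains of 3 loci were those of SACL2 and of SACL3 with their frames, the neighbours AT1G19394, AT1G19396 and AT1G19397, and the tandem row RPD1, AT4G33490 and AT4G33480.

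**Figure D1:**
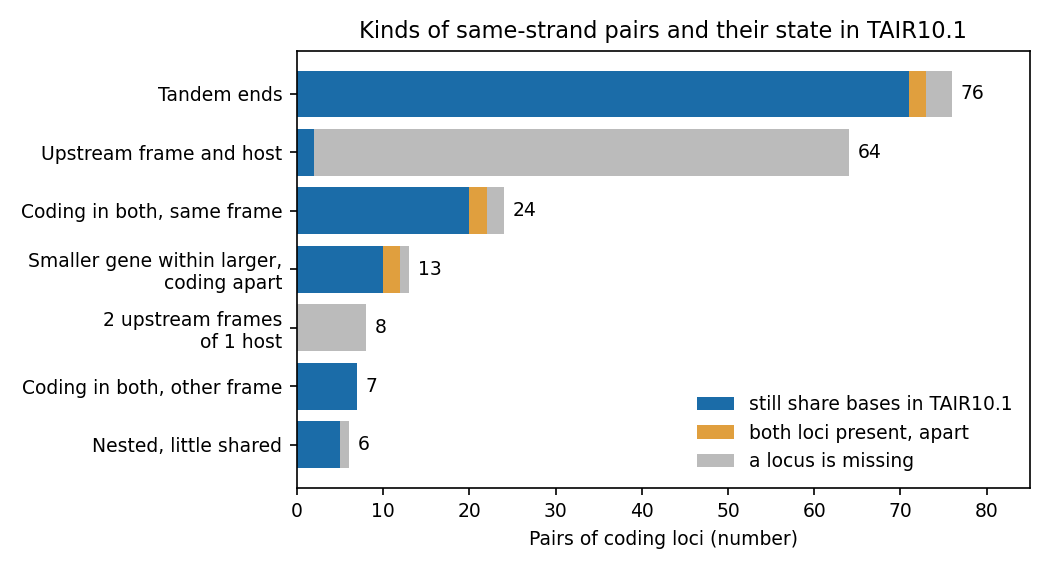
Bars give the number of pairs of each kind (x axis), coloured by the state of the pair in the newer TAIR10.1 annotation. Tandem pairs were the most numerous, with 76, and 71 of them still shared bases in TAIR10.1, whereas 62 of the 64 pairs of upstream frame and host had lost a locus there.

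The upstream frames are shown by their ends, for sets of hosts that are known for such frames or whose peptides were related. Each sequence below is the last 30 bases of the coding sequence of an upstream frame, 5′ to 3′, read from the TAIR10.1 assembly of RefSeq, whose 5 chromosomes have the lengths of the TAIR10 file. Capitals mark the stop codon. The first set comes from 5 genes for basic leucine zipper factors, bZIP44, bZIP2, bZIP11, bZIP53 and bZIP1, which are known for translation that falls when sucrose is plentiful.
bZIP44 frame AT1G75388: tttctctactggttctatgttttctcaTAA
bZIP2 frame AT2G18162: ttcctctactggttttacaacgtttcaTGA
bZIP11 frame AT4G34588: ttcctttactggctttactatgtctcaTGA
bZIP53 frame AT3G62422: tacctctactacacctacgttttctcaTGA
bZIP1 frame AT5G49448: attcttcattggttttacgttatctctTGA
These ends lie at chr1:28292051-28292080 on the plus strand, chr2:7898917-7898946 on the minus strand, chr4:16522197-16522226 on the plus strand, chr3:23092467-23092496 on the minus strand and chr5:20052105-20052134 on the plus strand. Position by position, bZIP2 and bZIP11 had the same base at 25 of the 30 positions, and the least alike pair, bZIP53 and bZIP1, at 17. Over all 2016 pairs that the 64 upstream frames can form, the median was 9 of 30 positions.

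The second set comes from the 3 genes SAMDC1, SAMDC2 and SAMDC3 for S-adenosylmethionine decarboxylase, which supplies the aminopropyl groups for spermidine, spermine and thermospermine.
SAMDC1 frame AT3G02468: tactcaaactgctccaagaggccatccTGA
SAMDC2 frame AT5G15948: tactccaactgcgctaagaggccttccTGA
SAMDC3 frame AT3G25572: tactcaaacatcactggaaaaccatccTGA
The frames lie at chr3:509815-510068 on the plus strand, chr5:5206432-5206587 on the plus strand and chr3:9288595-9288871 on the minus strand, and an intron cuts the printed end of the first and of the last of these. SAMDC1 and SAMDC2 had the same base at 26 of 30 positions, SAMDC1 and SAMDC3 at 21, and SAMDC2 and SAMDC3 at 20.

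The third set comes from SAC51 and its relatives SACL1, SACL2 and SACL3, and shows the frame nearest to the main start codon in each leader.
SAC51 frame AT5G64341: ttcagacttctactcaaaccagtcacgTAG
SACL1 frame AT5G09461: tttagacatatactcaaaccagtgacgTAG
SACL2 frame AT5G50011: ttccgtcaattgttgaagcccgtcacgTAG
SACL3 frame AT1G29951: ttcagacagttgcttaagcctgtaacgTAG
The ends lie at chr5:25732191-25732220 on the minus strand, chr5:2945714-2945743 on the minus strand, chr5:20349351-20349380 on the plus strand and chr1:10493075-10493104 on the plus strand. SAC51 and SACL1 had the same base at 26 of 30 positions, and the other 5 pairs at 19 to 23.

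The fourth set comes from NMT1, NMT2 and NMT3, which code for phosphoethanolamine N-methyltransferases of phosphocholine synthesis. NMT1 is listed as XPL1 and NMT2 as PMEAMT in the gene table of TAIR10.1.
NMT1 frame AT3G17998: agatccagactcgccgtcgaaggccacTGA
NMT2 frame AT1G48598: agatccagactcgccgttgaaggccatTGA
NMT3 frame AT1G73602: agatccagactcgctatcgaaggatcaTAG
The ends lie at chr3:6154482-6154511, chr1:17965981-17966010 and chr1:27670674-27670703, all on the plus strand. NMT1 and NMT2 had the same base at 28 of 30 positions, and NMT3 matched them at 22 and 21.

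The last set pairs LHW, a bHLH factor gene of vascular development, with the bHLH gene EMB1444, and GRIK1 with GRIK2, the 2 kinases that activate the energy-sensing kinase SnRK1.
LHW frame AT2G27228: gctggaagaggatcttgccgtggaagtTAG
EMB1444 frame AT1G06149: gctggtagaggttcatacagaggtagtTAG
GRIK1 frame AT3G45242: catcttgctgaatggcatcctttggaaTAA
GRIK2 frame AT5G60548: catctcgctgaatggcatcctttggaaTAG
The ends lie at chr2:11650667-11650696 on the plus strand, chr1:1873360-1873389 on the minus strand, chr3:16573089-16573118 on the minus strand and chr5:24339890-24339919 on the plus strand. The LHW and EMB1444 ends had the same base at 23 of 30 positions, and the GRIK1 and GRIK2 ends at 28. Within the 22 families of related frames, the median was 22 of 30 positions over 39 pairs, and it ranged from 7 to 29. The highest was for the frames of AT2G37480 and AT3G53670, which code for uncharacterized proteins. Some related frames had ends no more alike than the median of all pairs, such as those of PAO2 and PAO3 at 9 positions, of AT5G09670 and AT5G64550 at 8 and of AT1G64140 and AT5G64550 at 7, and the frames of PIA1 and ANK6 matched at 10.

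The 64 upstream frames lay in the leaders of 58 hosts. Of the hosts, 54 held 1 frame, 2 held 2 (SACL2 and SACL3) and 2 held 3 (SAC51 and SACL1). By the TAIR10.1 product names, 16 hosts coded for transcription factors, 7 for kinases, 9 for methyltransferases, decarboxylases or oxidases, 7 for uncharacterized proteins and 19 for other proteins. The shares of these classes over all coding loci were not counted, so the counts show no excess of any class. Transcription factor hosts included the homeobox gene HB-1, the heat shock factor gene HSFB1, and CRF10 and CRF12 with an AP2 domain. Kinase hosts included WNK5, WNK8 and WNK10.

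The frames had 17 to 91 codons with a median of 39, the stop codon included. The 2 shortest were AT5G64342 in the SAC51 leader, with 17 codons, and AT5G09462 in the SACL1 leader, with 18, followed by AT5G64343 of SAC51 and AT1G64142, both with 21. The longest were those of CRF12, with 91 codons, and CRF10, with 88. HSFB1 held a frame of 37 codons, and the trehalose-6-phosphate phosphatase gene TPPF one of 25. The hosts they lay in had a median of 349.5 codons, counted once for each frame.

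Leaders that held a frame were long. Counted once for each frame, their median length was 496 bases, from 199 in NMT3 to 1167 in AT5G09670, a gene for a loricrin-like protein. Over the 58 hosts as loci the median annotated 5′ UTR was 476.5 bases, beside 102 over the 19493 coding loci with an annotated 5′ UTR, and a long enough leader is a condition of holding a frame. A median of 233 bases preceded the frame, and a median of 120.5 bases separated its stop codon from the start codon of the host. The frame of PAO3, a polyamine oxidase gene, ended 3 bases before the main start codon. Those of PAO2 and bZIP1 ended 10 bases before it, and the first frame of SACL3 ended 717 bases before it.

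**Figure D2:**
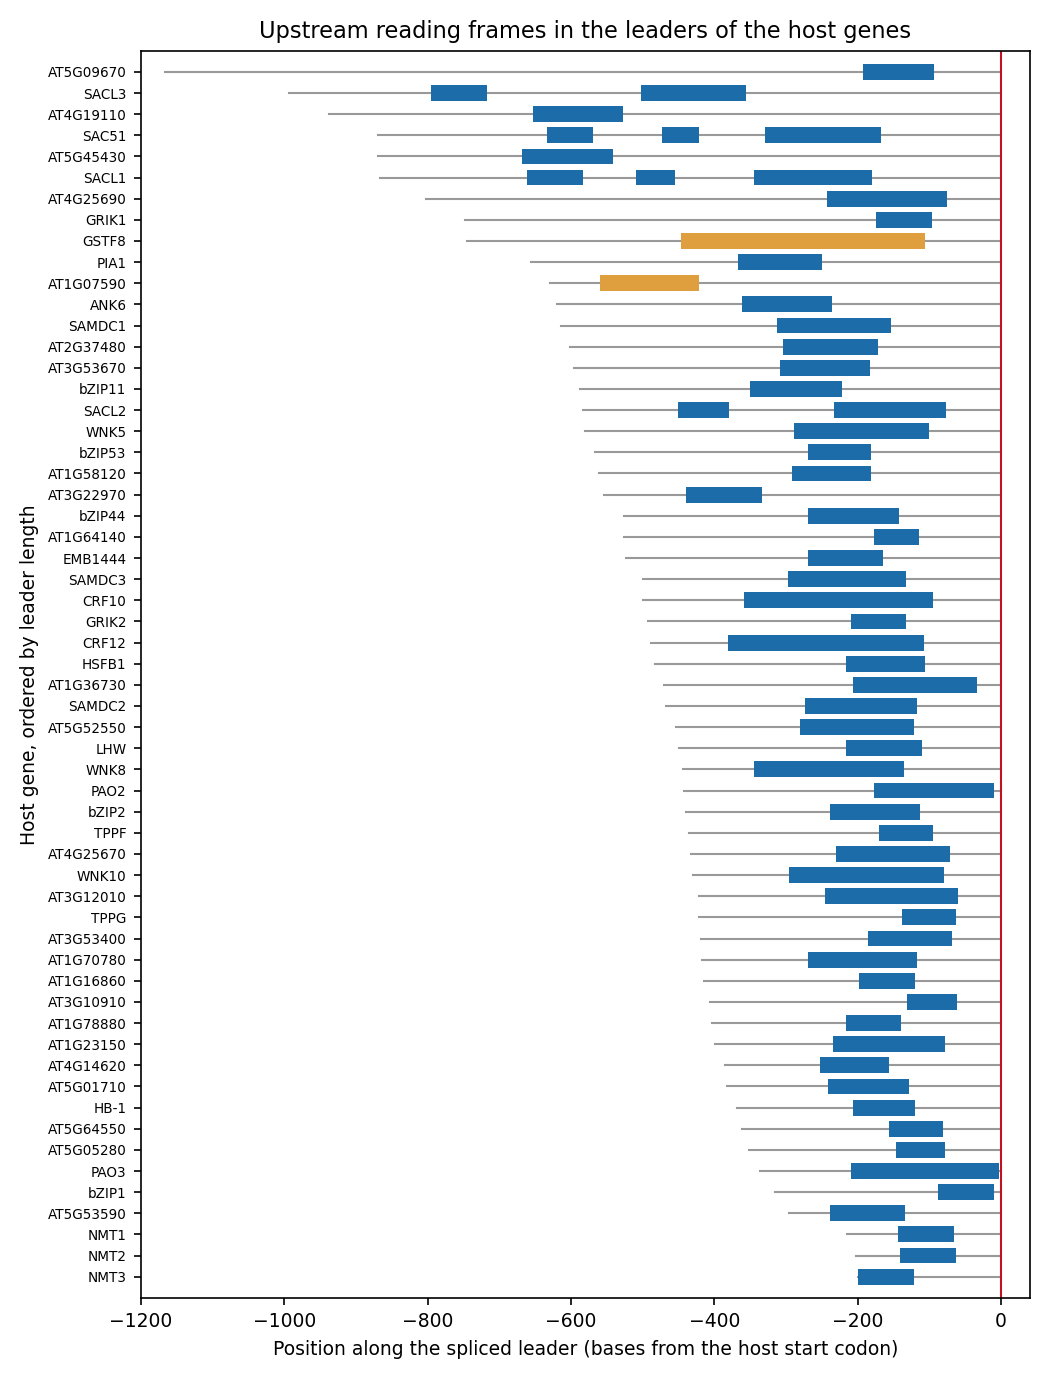
Each line is the spliced leader of 1 of the 58 hosts, drawn to scale in bases from the start codon of the host (red line at 0). Blocks are the upstream frames, blue where TAIR10.1 has a matching uORF feature and orange for the 2 others, of which the GSTF8 block includes an intron of the short locus. The 2 to 3 frames of SAC51, SACL1, SACL2 and SACL3 stand apart from the single frames of the other hosts.

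In 19 of the 58 leaders (32.8%) a frame began at the first ATG, and a leader held a median of 4 ATGs. Relative to the main frame, 28 upstream frames were in frame, 17 were offset by 1 base and 19 by 2. An intron cut 11 of the 64. The GSTF8 frame AT2G47720 is counted as in frame by its start codon. Its 219 coding bases span 341 bases of the GSTF8 leader, so the frame is not contiguous there. The other 63 were contiguous along the leader. In 57 cases every isoform of the host held the frame, and the exceptions included LHW, NMT2 and NMT3. A purine stood as the third base before the start codon, a feature of favourable start sites, in 40 of 61 upstream frames (65.6%) and in 43 of 58 hosts (74.1%), beside 74.9% of the coding loci with enough leader to read it. Over the 307 loci of the whole set that could be read it stood in 213 (69.4%). A G followed the start codon in 28 of 61 upstream frames (45.9%) and in 38 of 58 hosts (65.5%), beside 57.5% of all; over the whole set it followed in 173 of 307 (56.4%).

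SAC51 and SACL1 headed the only chains of 4 loci, in each case the host with its 3 frames. In the SAC51 leader of 869 bases, frames of 21, 17 and 54 codons followed each other (AT5G64343, AT5G64342 and AT5G64341). In the SACL1 leader of 866 bases, frames of 26, 18 and 55 codons (AT5G09463, AT5G09462 and AT5G09461) lay in the same order. The SACL2 leader of 583 bases held frames of 24 and 52 codons (AT5G50012 and AT5G50011), and the SACL3 leader of 993 bases held frames of 26 and 49 codons (AT1G29952 and AT1G29951). In all 4 genes the longest frame was the last one before the main start codon, and an intron cut it. The ends of the first frames are shown for all 4 genes.
SAC51 first frame AT5G64343: ttgaatctgtattgccgtgtgatactgTAG
SACL1 first frame AT5G09463: ttgaatctgtattgccgagttattctgTAA
SACL2 first frame AT5G50012: gtagtagtcttctgtcgtgtgattctgTAA
SACL3 first frame AT1G29952: ctggttgtctttttcctcgttattctgTAA
These ends lie at chr5:25732691-25732720 and chr5:2946219-2946248 on the minus strand and at chr5:20348938-20348967 and chr1:10492546-10492575 on the plus strand. SAC51 and SACL1 had the same base at 26 of 30 positions. SACL3 matched SACL1 and SACL2 at 21 positions each, and the other 3 pairs matched at 18.

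Peptides translated from the frames were aligned with each other over their whole length, and so were the host proteins. At 40% identity or more, 52 of the 64 frames (81.2%) had a relative among the other frames, and they grouped into 22 families of 2 to 4 frames. The median over all 2016 pairs of frames was 7.14%. Of the 36 related pairs, 24 had peptides more alike than their hosts. The pairs were chosen by peptide identity with no condition on the hosts, so this count is tilted towards the peptides. A related pair with hosts under 40% identity could only fall on the side of the peptides. The peptides of bZIP44, bZIP2 and bZIP11 were 66.7 to 75.6% identical, and these 3 factors themselves 45.6 to 50.3%. The frames of bZIP53 and bZIP1 were less alike by this measure, with 26.2 to 36.6% identity to the other 4. Their last bases nevertheless matched as shown above. These 2 frames have 29 and 26 codons, against 42, 42 and 43 in bZIP44, bZIP2 and bZIP11. Identity is taken over the longer peptide, so the unlike lengths alone lower these values. Of the 7 bZIP pairs under 40% peptide identity, 4 had hosts more alike than peptides by this measure, for example bZIP53 and bZIP11 with 38.4% and 31.0%. Each of these 4 pairs joined a longer and a shorter peptide, so the count does not show that the hosts were the more alike.

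In the SAC51 family, peptides were more alike than the proteins of their hosts in all pairs that passed the 40% cut. For hosts under 40% identity the cut itself fixed this, as for SAC51 with SACL2 or SACL3 and for LHW with EMB1444. First frames of the family that stayed under the cut had 20.0 to 39.1% identity. The long frames of SACL1 and SACL3 were under it as well. SAC51 and SACL2 had long-frame peptides of 67.9% identity and proteins of 27.6%, and SAC51 and SACL3 had 45.3% and 19.0%. LHW and EMB1444 had peptides of 44.1% identity in proteins of 16.6%. CRF10 and CRF12 had 62.2% in proteins of 40.1%, and TPPF and TPPG had 83.3% in proteins of 81.2%. Among the decarboxylases, peptides were 64.8 to 86.5% identical and proteins 60.1 to 80.6%.

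In the other 12 related pairs the hosts were more alike than the peptides. PAO2 and PAO3 had proteins of 84.9% identity and peptides of 44.1%. WNK8 and WNK10 had 68.6% and 40.8%. The methyltransferase genes lay on both sides, with peptides of 92.0% and proteins of 89.0% for NMT1 and NMT2, and peptides of 68.0% and proteins of 77.4% for NMT2 and NMT3. GRIK1 and GRIK2 had 76.0% for the peptides and 77.4% for the kinases.

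**Figure D3:**
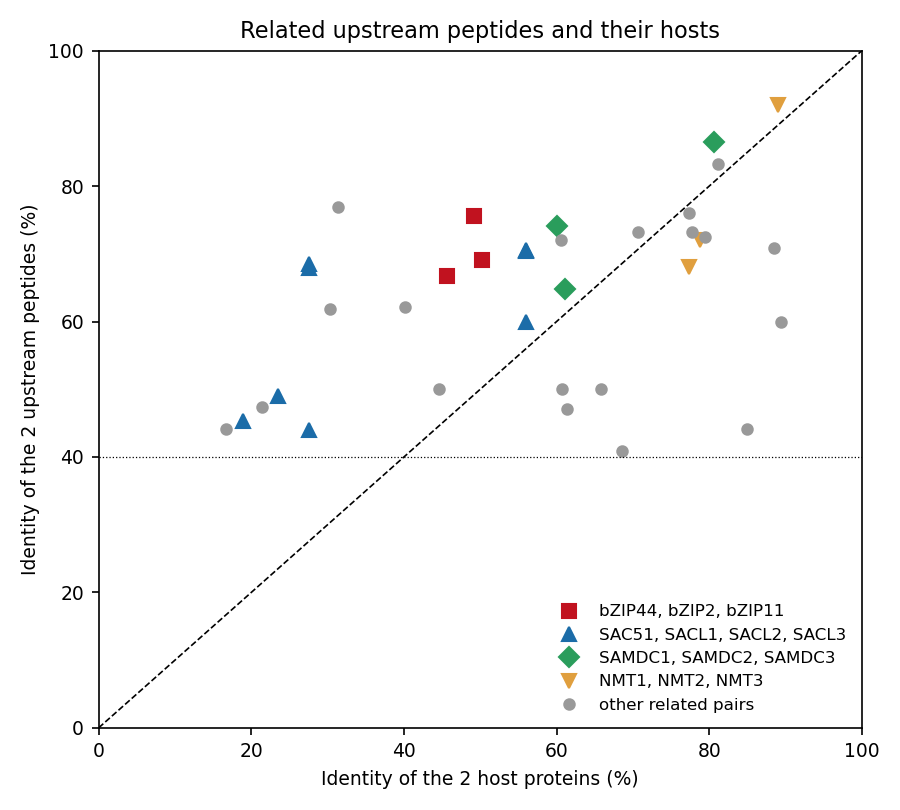
Each point is 1 of the 36 pairs of related upstream frames, with the identity of the 2 host proteins on the x axis and of the 2 peptides on the y axis, both in percent. The dashed line marks equal identity and the dotted line the 40% used to call a pair related. The 24 points above the dashed line include every pair drawn for the bZIP, SAC51 and SAMDC groups. Pairs under 40% peptide identity are not drawn, so a pair with hosts under 40% can only lie above the dashed line.

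As loci, most frames were annotated almost as copies of their hosts. In 42 of the 64 pairs the joined exons of frame and host were identical, in 18 one lay within the other, and in 4 they were nested. In 62 of the 64, the 3′ UTR of the frame locus ran through coding bases of the host. Of the 3′ UTR bases that the frames shared with their hosts, 70.4% were coding in the host. AT1G07600 and AT2G47720 had no annotated UTR. Their hosts kept 94.2% and 87.4% of their exonic bases as their own. Of the frame loci, 59 of 64 had no exonic base that another coding locus on the strand did not hold, and neither had 38 of the 58 hosts, among them SAC51, bZIP11 and LHW.

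TAIR10.1 records these frames differently. It kept 2 of the 64 as loci, and for the other 62 it has a uORF feature that covers the whole frame. The 2 kept as loci were AT1G07600 (MT1A), a metallothionein gene of 46 codons in the leader of AT1G07590, and AT2G47720, a gene of 73 codons for an uncharacterized protein, in the leader of the glutathione transferase gene GSTF8. Both are counted among the 64. TAIR10.1 holds 111 uORF features naming 84 loci, of which 56 were hosts here. The other 28 were coding loci outside the 372, so in the deposited file no coding locus on the same strand shares exonic bases with them.

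A list of 24 genes known for conserved upstream frames or for polyamine synthesis was looked up. Many of the genes were listed because such frames are known in them, so a high count of hosts was built in. Of the 24, 19 were hosts, beside 58 hosts among all 27206 coding loci. The 5 others were the ascorbate synthesis genes VTC2 and VTC5, the thermospermine synthase gene ACL5, the decarboxylase gene BUD2 and the polyamine oxidase gene PAO4. VTC2 and VTC5 have leaders of 503 and 420 bases and a uORF feature in TAIR10.1, and ACL5 and BUD2 have leaders of 120 and 108 bases and no such feature. PAO4 has a leader of 393 bases and no such feature.

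Outside the upstream frames, 126 pairs (63.6%) remained, over 250 loci that were neither frame nor host. The median shared length was 525 bp over all 198 pairs and 191.5 bp over these 126. Shared lengths ran from 1 to 3622 bp. The pairs of frame and host had a median of 1889 bp, and the largest of these, EMB1444 with AT1G06149, shared 2968 bp. The medians of the other main kinds were 651.5 bp for the same-frame pairs and 118.5 bp for the tandem pairs.

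**Figure D4:**
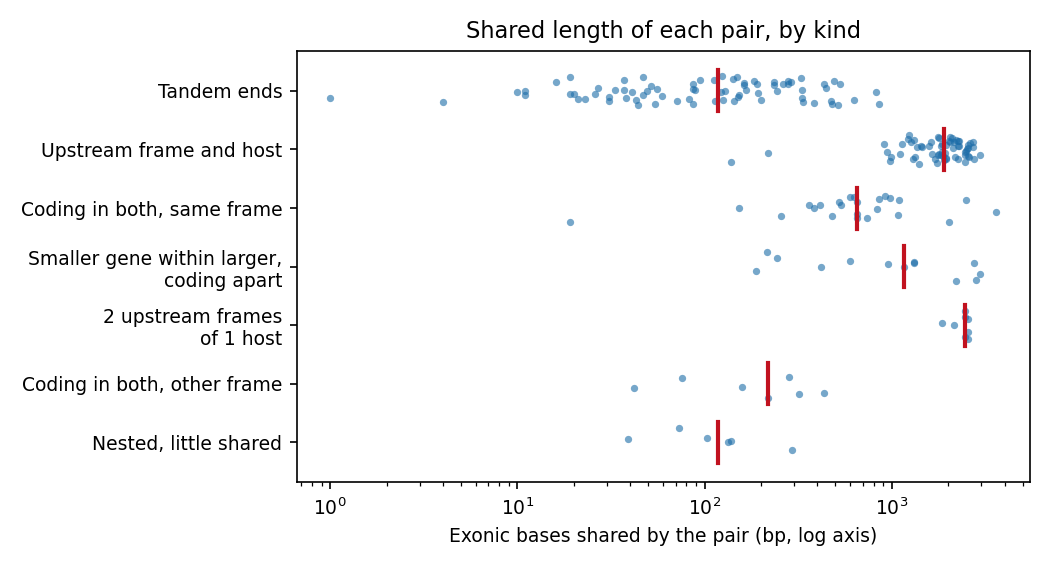
Each point is 1 pair, placed by its shared exonic bases in bp on a log axis and by its kind, and the red bars mark the medians. Tandem pairs spread from 1 to 858 bp with a median of 118.5 bp, and pairs of frame and host lie to the right with a median of 1889 bp.

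In the 24 same-frame pairs, an isoform of at least one locus took in coding exons of the other in the same frame. That isoform belonged to the upstream locus in 17 pairs, to the downstream locus in 5 and to both in 2. The first listed isoforms shared bases in 3 of the 24. The shared coding bases covered a median of 93.5% of the smaller coding sequence and over 90% of it in 16 pairs. Of 17667 bases coding in both loci, 17346 (98.2%) were read in the same frame.

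LINC4 (AT5G65770), which codes for a protein of the nuclear periphery, and ATBCAT-5 (AT5G65780), a branched-chain aminotransferase gene, shared the most. They lie at chr5:26311311-26316025 and chr5:26311311-26318812 on the plus strand and had 3622 bp in common, of which 3020 bp were coding in both. The first isoform of ATBCAT-5 has 416 codons and its longest 1019, and these 2 isoforms have no coding base in common. The longest one is therefore not an extension of the first. The 3020 bp made up 94.5% of the 3195 coding bases of LINC4. The first isoforms of LINC4 and ATBCAT-5 shared 438 bp. In TAIR10.1 the pair shared 466 bp. SECA2 (AT1G21650), a preprotein translocase gene, had a first isoform of 1052 codons and a longest one of 1806, which took in 2415 coding bases of AT1G21651, a gene for a zinc ion binding protein.

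All 1737 coding bases of BON1 (AT5G61900), a copine gene known for its part in growth and defence, were also coding in AT5G61910. AT5G27400 and AT5G27410 shared 1064 coding bases, and AT4G22753 and AT4G22750 shared 888. Other small coding sequences taken in by a neighbour were those of Tic20-I, a chloroplast import gene, with 92.5% of its bases, and NAC027 with 98.8%. UGT73B5 and UGT73B4, adjacent glycosyltransferase genes, shared 153 coding bases, or 10.5% of the smaller sequence. The shortest overlap of this kind, 19 bp, lay between AT3G13404, a locus of 22 codons, and AT3G13403, a gene for a defensin-like protein.

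Reading in another frame was rarer and shorter. The 7 such pairs shared 17 to 78 bases coding in both. The longest stretch, 78 bases, was in BIN2 (AT4G18710), the kinase that represses brassinosteroid signalling, and AT4G18720, a gene for a TFIIS-like transcription factor. BEH4 (AT1G78700), a relative of the brassinosteroid-responsive factors BES1 and BZR1, shared 37 such bases with TBL42. APD1 and APD4, RING protein genes of 56.8% protein identity, shared 42.

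In 13 pairs, more than 90% of the smaller gene lay within the larger while the coding sequences stayed apart. In 4 of these, over 90% of both genes was common to the pair, with the coding sequences one after the other along the strand. ATRZ-1A, an RNA-binding protein gene, and AT3G26430, a lipase gene, shared 2952 bp, with 1363 bp from the stop codon of one to the start codon of the other. MAPR2 and AT2G24945 shared 2820 bp. UGE5, which codes for a UDP-glucose 4-epimerase, and AT4G10955 shared 2744 bp, and 973 coding bases of UGE5 lay in the leader of AT4G10955. The remaining coding bases of UGE5 lay outside the exons that this pair shared. PRA1.F4, which codes for a prenylated Rab acceptor, and AT3G13700 shared 2200 bp. In another of the 13, CIB1, a blue-light bHLH factor gene, lay whole within AT4G34540, with its 1008 coding bases in the leader of that gene. In TAIR10.1, MAPR2 and UGE5 no longer shared bases with their partners, and ATRZ-1A, PRA1.F4 and CIB1 still did.

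In others of the 13 the smaller gene lay in the 3′ UTR of the larger. All 1080 coding bases of AT3G53140, an O-methyltransferase gene, lay in the 3′ UTR of LUT1, the carotenoid hydroxylase gene of lutein synthesis. Among the 90 loci of at most 100 codons, 64 were upstream frames, 4 had their coding sequence in the 3′ UTR of the partner and 22 lay elsewhere. These 90 were 24.2% of the 372, beside 8.32% of all coding loci. Without the 64 frames, 26 of the remaining 308 loci were this short, or 8.44%.

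Tandem pairs overlapped at their ends by little. Their 13425 shared bases were coding in the upstream gene and 5′ UTR in the downstream gene for 44.4%, 3′ UTR and coding for 30.6%, 3′ UTR and 5′ UTR for 23.0%, and 3′ UTR in both for 2.08%. By pairs, 21 of the 76 shared only 3′ UTR with 5′ UTR, 16 only 3′ UTR with coding and 18 only coding with 5′ UTR. Coding bases of the downstream gene lay in the upstream transcript in 28 pairs, and coding bases of the upstream gene lay in the downstream leader in 30.

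From the stop codon of the upstream gene to the start codon of the next, tandem pairs had a median of 388.5 bp and a range of 6 to 4098 bp. In 6 pairs the distance was under 100 bp. The shortest, of 6 bp, was between AT4G38280 and AT4G38290, which code for membrane proteins related to hemolysin III and shared 124 bp. Their junction is shown because one short window holds both codons, with the stop codon of the upstream gene and the start codon of the downstream gene in capitals.
AT4G38280 to AT4G38290: tcaaatgagTGAagggaaATGggcagcgta
This window lies at chr4:17942853-17942882 on the plus strand. The next shortest distances were 25 bp between AT4G28706, a pfkB-type carbohydrate kinase gene, and the myosin gene XIH, and 37 bp between the lectin receptor kinase genes LecRK-I.9 and AT5G60310.

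The longest tandem overlaps were those of 3 pairs. AT2G32240 and AT2G32235 shared 858 bp, AT1G69290 and AT1G69280 819 bp, and AT1G29179 and AT1G29180, both named for a cysteine/histidine-rich C1 domain, 628 bp. DCL2, a Dicer gene of small RNA production, shared 515 bp with AT3G03305. At the lower end, AT4G00290 and AT4G00280 shared 1 bp and AT4G33490 and AT4G33480 shared 4 bp. Just outside the rule, 6 neighbouring same-strand pairs had 0 bases between them and 33 had at most 10, of 26996 neighbours with spans apart.

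Few tandem partners had proteins alike over their whole length. In 5 of the 76 pairs the proteins were at least 40% identical, with 89.5% for the serine carboxypeptidase genes AT4G36190 and AT4G36195, 76.6% for the pectin acetylesterase genes AT3G09410 and AT3G09405, 74.5% for AT2G35820 and AT2G35830, 61.2% for the LecRK-I.9 pair and 42.3% for AT1G69520 and AT1G69523. The median over tandem pairs was 1.38%. No value for neighbours without shared bases was set beside these. Pairs with like product names could fall under 40%, as AT1G29179 with AT1G29180 and AT4G38280 with AT4G38290 did.

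Upstream genes of tandem pairs ended in TGA in 51 of 76 cases (67.1%), beside 43.3% of all coding loci, 31 of 76 downstream genes (40.8%) and 174 of all 372 loci (46.8%). No test was made of these shares. The signal AATAAA, searched on the transcript strand in the last 50 bases of annotated 3′ UTRs, was found in 39 of 304 loci (12.8%), beside 12.4% of all coding loci. Many upstream frames have the same annotated 3′ end as their hosts, so 1 end can be counted more than once. By group, the signal stood in 13 of 62 upstream frames (21.0%), 9 of 58 hosts (15.5%) and 17 of 184 other loci (9.24%). It was found in 7 of 58 upstream genes of tandem pairs (12.1%).

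Other features of the 372 were set beside those of all coding loci, with no test. A coding locus on the opposite strand also shared bases with 33 of the 372 (8.87%), beside 11.1% of all. Hosts and upstream frames with the same exons are counted separately among the 33, as SAC51 and its 3 frames are. There were 2 or more isoforms in 104 (28.0%) beside 21.3%, and the exons of isoforms had been joined before loci were compared. Each of the 64 upstream frames had a single isoform, so all 104 were among the 308 other loci. A single exon was annotated in 75 (20.2%), beside 21.9%. A locus number that is not a multiple of 10, as given to loci added between others, was held by 127 (34.1%), beside 13.2%, and by 65 of the 308 loci that were not upstream frames (21.1%). The loci made up 1.24 to 1.57% of the coding loci of each chromosome, lowest on chromosome 1 and highest on chromosome 4, and 187 of the 372 lay on the minus strand.

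No exonic base of their own remained to 106 of the 372 loci (28.5%), and 138 had fewer than 100. Of the 106, 59 were upstream frames, 38 hosts and 9 other loci. The 9 included CIB1, AT3G53140, AT2G24945 and AT1G62886, a gene for a subunit of the repair factor TFIIH. Over 90% of the exonic bases were a locus's own in 96.

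TAIR10.1 has 303 of the 372 loci (81.5%), beside 98.2% of all coding loci, and 301 of the 308 that were not upstream frames (97.7%). Of the 198 pairs, 115 still shared exonic bases there, 6 were apart and 77 had lost a locus. Of the 77, 70 were pairs with an upstream frame. The 5 tandem pairs that no longer shared bases comprised 2 apart and 3 with a lost locus. By the same rule TAIR10.1 has 937 coding loci that share bases on a strand, 3.41% of its 27444, and 228 of the 372 were among them.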

How the data were processed

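The study deposited the TAIR10 annotation as a table of 590264 lines. Its values are feature start and end positions in bp, counted from 1, and the coding phase, in the deposited file's own columns, and the score column held 0 values. The submitters' processing notes name Trimmomatic 0.0.3, TopHat2 2.0.8 and TAIR10, without a role. No column belongs to a library, so the study's 21 libraries are described from the labels alone. The loci and lists were chosen with earlier results of these data known. Exons, coding sequence and UTRs were joined over isoforms with Python 3.11.15, and coding was given precedence over UTR where isoforms differed. Stop-to-start distances run along the chromosome. Proteins were aligned globally with Biopython 1.88 (BLOSUM62, gap opening 11, extension 1, free ends), and identity is over the longer protein. Sequences and product names are from TAIR10.1 of RefSeq. Named genes are the 5 pairs with most shared bases, the 5 with most bases coding in both, the 5 shortest loci, the longest chains, the 3 shortest tandem distances and the list of 24; others were named as examples after their values were seen. On 300 made-up genes, the pair search was tested on simulated data and recovered 561 of 561 same-strand pairs.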

Additional observations from a re-analysis of the deposited data

How the results depend on the processing

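The count of 372 loci stayed within 1.5 times under a minimum of 10 or 50 shared bases (369 and 317), the first listed isoform only (265), whole gene spans (392), partners of any class (416) and, chosen after seeing the data, all 7 sequences (385). It moved to 62 with coding bases only and to 937 in the TAIR10.1 annotation. Pairs with bases coding in both loci numbered 31 over all isoforms and 4 over first isoforms. The median shared length of 525 bp ran from 400.5 to 651 bp with each chromosome left out and was 191.5 bp without pairs that hold an upstream frame, an alternative also chosen after seeing the data. Loci of at most 100 codons numbered 90, against 63 at 60 codons and 124 at 150, and the upstream frames 64, against 56, 65 and, in first isoforms, 62. These counts depend on where annotators set transcript ends, which no value here measures. No paired analysis was possible because the file holds no library values.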
